A study of Ciona robusta with 133 samples.

Results

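The 61 genes described here had mean levels more than 2-fold higher (with 1 CPM added) in presumptive notochord cells of the ascidian Ciona robusta than in every other cell type sampled, both at the 112-cell stage and at the neural plate stage. They were selected on measured values. For each of 15287 gene models, the mean CPM (the count of a gene scaled to a fixed library total) of the notochord cell A8.5 was set against the highest mean among A8.7, a8.19 and a8.22. The mean of the notochord group A9.9+A9.10 was set against the highest mean among the other neural plate groups, a9.43+a9.44, a9.37+a9.38 and A9.13+A9.14. Both ratios were taken as log2 after adding 1 CPM, the smaller one ranked the genes, and those above 1 were kept, with room for 80. All values at these 2 stages are therefore given as a description, and tests are confined to the 16-, 32- and 64-cell stages, which the selection did not use.

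The notochord is the rod of mesoderm that stiffens the tail of the chordate embryo and lies beneath the nerve cord. In ascidians its precursors are set aside during cleavage in an invariant lineage, where an FGF signal separates a notochord cell from a sister cell that forms nerve cord, and the T-box factor Brachyury switches on genes for later notochord behaviour. The cells then divide, line up in a single row by convergent extension, lengthen, and form a fluid-filled lumen surrounded by a sheath.

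Single cells were dissected by hand from embryos, and cDNA was amplified from each with a low-input kit. The series title poses the question of how alike the neural cells of the A line and the a line are. The notochord branch of the A line, which was sampled beside them, is followed here. No agent, mutant or transgene is named for any group, and all groups share the species and the dissection. At 16 cells the notochord lineage lay in A5.1, sampled with a5.3, and at 32 cells in A6.2, sampled with A6.1, a6.5 and a6.6. By textbook fate maps, the 64-cell notochord cell is A7.3, set here beside A7.4 (nerve cord), A7.2 (endoderm), a7.10 (neural) and a7.11 (epidermis). At 112 cells the notochord cell was A8.5, set beside A8.7 (nerve cord), a8.19 (neural) and a8.22 (epidermis). At the neural plate stage (6-row stage) the notochord group was A9.9+A9.10, set beside the A-line neural group A9.13+A9.14, the a-line neural group a9.37+a9.38 and the epidermal group a9.43+a9.44. Endoderm was not analysed after 64 cells, and muscle and mesenchyme not at any stage, so the choice of the 61 genes says nothing of those tissues. Each neural plate label names a pair of cells, and which of them a library holds is not stated.

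The 133 libraries covered 19 cell types, with 6 to 9 libraries from 2 to 8 embryos each. Library totals ranged from 1452103 to 16599891 counts, with a median of 7546701. Cells of the same type from the same embryo were summed, so n counts embryos. Counts are amplified reads without molecular identifiers, so counting intervals and limits cover counting error only. Gene lengths were not used, so levels are compared within a gene and not between genes. The identifiers could not be paired with gene names, and so no marker gene could be used to check the tissue names, which rest on the cell labels and the fate map. Where identifiers are printed, no role is given for them.

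Some libraries went against their labels. With the 40 genes that best separated the types of a stage and line in the other embryos, 119 libraries could be placed, and 7 fell nearer to another type. Both libraries labelled A7.4 of embryo 3 held A7.4 genes at a mean log2(CPM + 1) of only 0.683 and 0.654, while the other A7.4 libraries held them between 2.67 and 3.19. Those same libraries held A7.2 genes at 3.68 and 4.05. The single library labelled A8.7 of embryo 5 held A8.7 genes at 2.16 and A8.5 genes at 2.57. The other 4 were 32-cell libraries of A6.1 and A6.2, including both labelled A6.2 of embryo 1. Most counts, sums and medians of the 61 genes that rest on these libraries are given with and without them. Among those given only with them are the DESeq2 calls, the fits of 2 types, the fits with A6.1 added and the type of highest mean over all types. This check was chosen after the data had been seen.

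The selection values were spread widely. The smaller log2 ratio had a median of 1.56, exceeded 3 in 5 genes and stayed below 2 in 43. In 34 genes the ratio at 112 cells was the smaller one. KH.S1404.1 stood first, with log2 ratios of 6.17 at 112 cells and 5.96 at the neural plate, followed by KH.C2.866 with 4.73 and 5.02. The last genes inside the limit were KH.C11.274, with a smaller ratio of 1.04, and KH.C10.618, with 1.02. Just outside it lay KH.C8.77 at 0.989 and KH.C9.552 at 0.975. KH.C8.77 missed the limit at 112 cells, with a mean of 39.9 CPM in A8.5, against 19.6 CPM in A8.7.

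**Figure D1:**
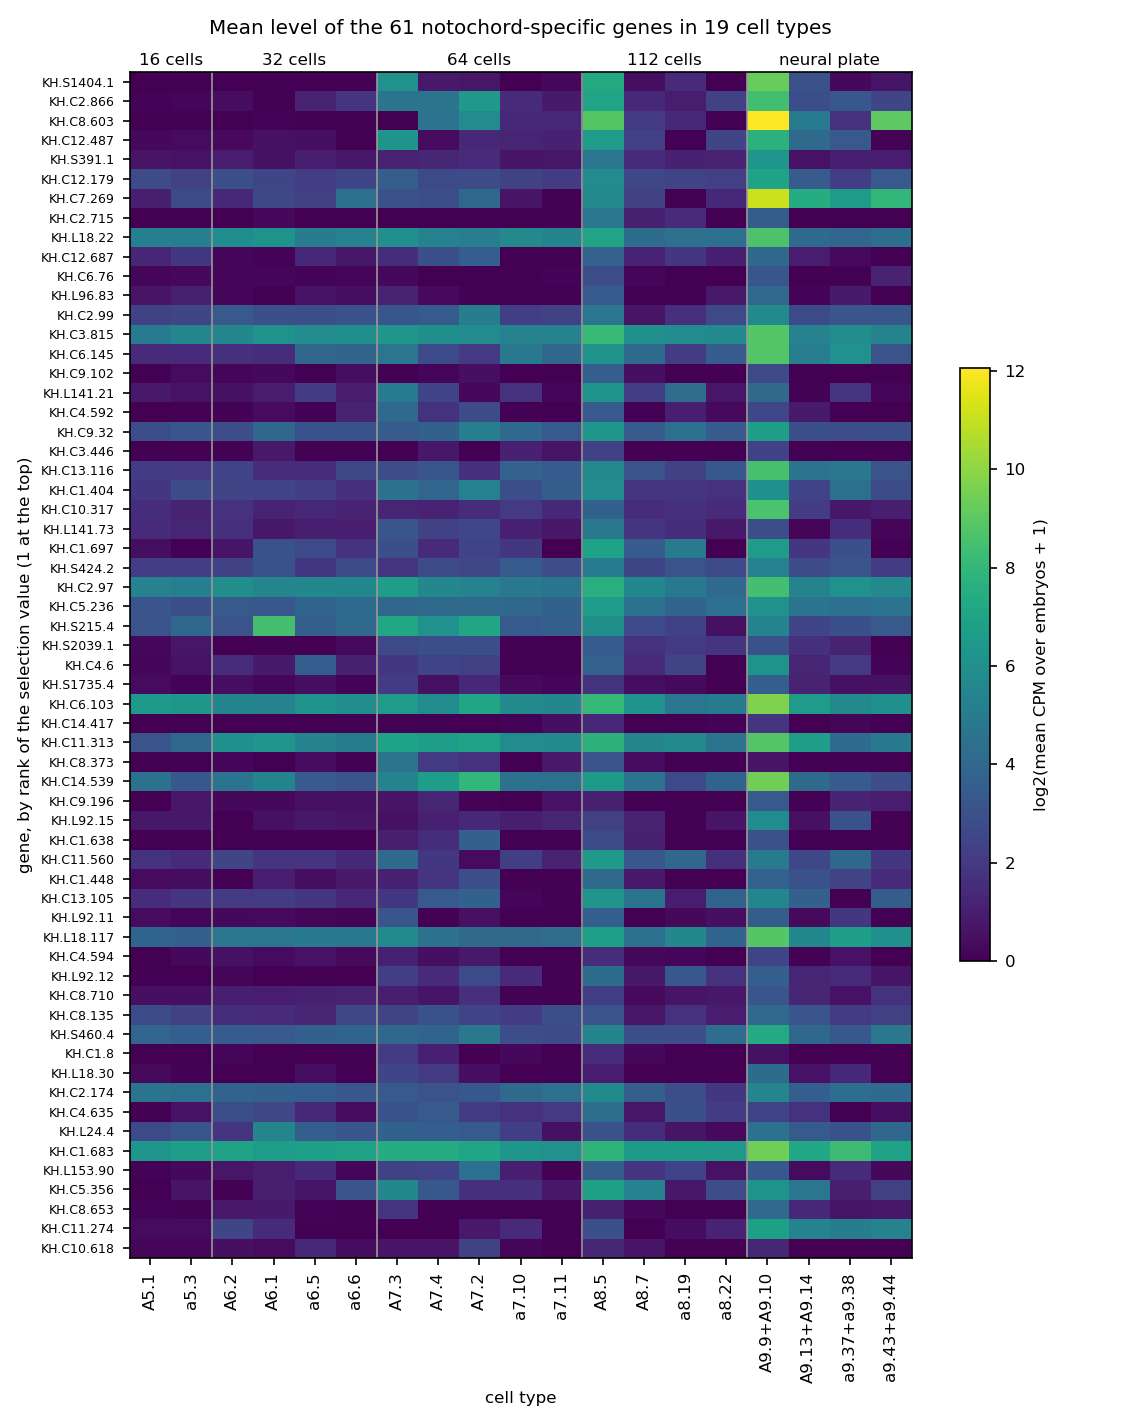
Mean level of the 61 genes, as log2(mean CPM over embryos + 1), with 1 row per gene in order of the selection value and 1 column per cell type, the notochord type first within its stage from 64 cells on. The columns A8.5 and A9.9+A9.10 are mostly brighter than the other types of their stages, which the selection fixes; before 64 cells 16 of the 61 genes averaged at least 5 CPM in A5.1 and 16 in A6.2, of which 14 did so in both.

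KH.S1404.1, the first by selection value, was separate from the other types from 64 cells on. No read of it was counted in any A5.1, A6.1 or A6.2 embryo. In A7.3 its levels were 54.6, 77.0, 61.4 and 77.9 CPM, against 0, 0, 1.98 and 1.07 CPM in A7.4. In A7.2 it reached 2.64 CPM in 1 embryo and was not counted in the other 3. The notochord cells thus had it in every embryo, and their sisters and cousins at most at a trace. In A8.5 its levels were 78.9, 179, 241, 147 and 151 CPM, against at most 7.26 CPM elsewhere at 112 cells. Still later it stood at 394, 586 and 819.4 CPM in the embryos of A9.9+A9.10, against at most 11.3 CPM in any embryo of the other 3 groups.

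KH.C2.866 was shared with the endoderm cell at 64 cells. A7.3 held 3.05, 37.5, 46.0 and 9.82 CPM of it, below the 82.3, 95.04, 105 and 72.4 CPM of A7.2. In A7.4 it had 7.82, 86.2, 0.766 and 0.0668 CPM, and the highest of these came from embryo 3, whose libraries go against their label. Later the notochord groups were apart from the others in every embryo. In A8.5 it had 106, 78.0, 274, 73.4 and 130 CPM, against at most 5.17 CPM in the other 112-cell types. It had 340, 252 and 435 CPM in A9.9+A9.10, against at most 24.3 CPM in the other neural plate groups.

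KH.C8.603 and KH.C7.269 took the most reads in A9.9+A9.10 and together made up 44.0% of the summed level of the 61 genes there. In A7.3 KH.C8.603 was near 0, at no more than 0.0697 CPM, against 81.5, 127, 0.781 and 14.1 CPM in A7.2. In A8.5 it had 0, 690, 1444, 11.3 and 225 CPM, so 1 of the 5 embryos lacked it. It had 2141, 7619 and 2993 CPM in A9.9+A9.10, against 529, 540 and 554 CPM in a9.43+a9.44 and at most 34.2 CPM in the other 2 groups.

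The place of KH.C7.269 at 112 cells rested on few embryos: A8.5 had 0, 12.1, 242, 0 and 0 CPM, and A8.7 had 6.72, 13.8, 0, 0 and 0 CPM, so A8.5 and A8.7 overlapped. At the next stage KH.C7.269 had 1400, 4703 and 598 CPM in A9.9+A9.10, against 58.7, 359 and 336 CPM in a9.43+a9.44. The neural group a9.37+a9.38 had 25.6, 267 and 12.04 CPM of it, and A9.13+A9.14 had 10.2 and 337 CPM. Every A9.9+A9.10 embryo was thus above every other embryo of that stage. Single libraries did overlap, and KH.C7.269 was not among the 16 genes separate in every neural plate library.

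KH.C3.815 was, after KH.C8.603, the highest by reads in A8.5 and was present early, between 26.2 and 37.7 CPM in A5.1. In A7.3 KH.C3.815 had 127, 66.4, 49.8 and 63.5 CPM. In A8.5 KH.C3.815 had 356, 216, 329, 211 and 299 CPM, against at most 99.8 CPM in any embryo of A8.7, a8.19 or a8.22. The A8.5 embryos thus did not overlap with the others. Later KH.C3.815 had 352, 271 and 792 CPM in A9.9+A9.10, against at most 101 CPM in the other groups.

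**Figure D2:**
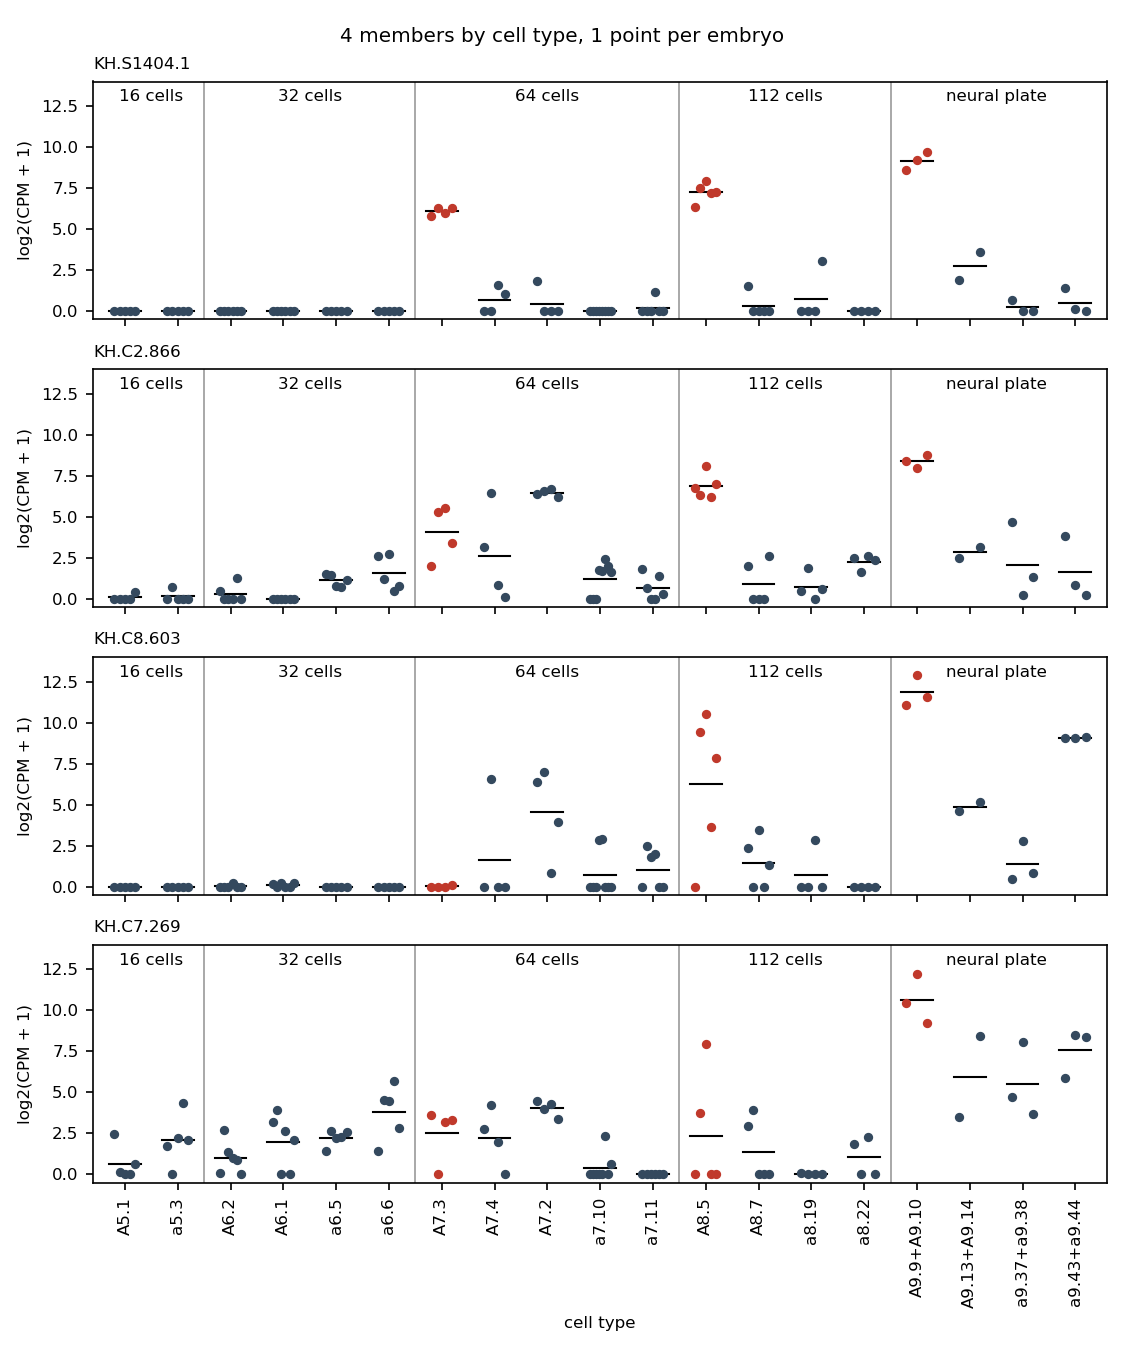
Level of 4 of the genes, as log2(CPM + 1), by cell type, with 1 point per embryo, a line at the mean of the points, and the notochord types from 64 cells on in red. KH.S1404.1 is separate from all other types from A7.3 on, KH.C2.866 from A8.5 on, and KH.C8.603 and KH.C7.269 overlap with other types at 112 cells.

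The selection used means, and a mean can rest on 1 embryo. At the neural plate 43 of the 61 genes were counted in all 3 embryos of A9.9+A9.10 and 3 in only 1 of them. In A8.5 38 genes were counted in all 5 embryos and 4 in only 1, and in 23 genes most of the summed embryo level came from a single embryo. At the neural plate, with only 3 embryos, 1 embryo gave most of the summed level in 43 genes. Embryo 5 was the highest A8.5 embryo for 21 of the 61 genes (34.4%), while it was the highest for 23.5% of all genes whose A8.5 mean reached 1 CPM. KH.C10.618, at the edge of the limit, was counted in a single embryo of A8.5, at 6.73 CPM, and in a single embryo of A9.9+A9.10, at 4.08 CPM.

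A stricter reading asks for every library of the notochord type to stand above every library of the other types. Of the 61 genes, 10 met this at 112 cells (7 A8.5 libraries above 21 others), where 0.154% of all genes with a count did. At the neural plate 16 met it (6 A9.9+A9.10 libraries above 18 others), where the share of all genes was 0.231%. Libraries of 1 embryo are not separate replicates: the 7 A8.5 libraries came from 5 embryos and the 6 A9.9+A9.10 libraries from 3. Most A9.9+A9.10 libraries came from the embryo labelled 2*, which thus weighed most in the mean used by the selection. Without that embryo the selection kept 48 of the 61 genes. Without the library labelled A8.7 of embryo 5, the count at 112 cells was again 10 and the share of all genes 0.154%, and the selection kept 60 of the 61 genes. Because the same contrast chose the genes, nothing is read from these counts beyond how many of the 61 are separate in each library. KH.S1404.1, KH.C2.866, KH.C12.487, KH.C12.179, KH.C3.815 and KH.C6.103 were separate at both stages, a set named after the values were seen. With embryo sums in place of libraries, 17 genes were separate at 112 cells, where 0.28% of all genes were, and 28 at the neural plate, where 1.22% were.

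The next highest type varied from gene to gene. At 112 cells the highest of the other types was A8.7 for 32 genes, a8.19 for 18 and a8.22 for 11, and without A8.7 of embryo 5 it was A8.7 for 32, a8.19 for 17 and a8.22 for 12. At the neural plate it was A9.13+A9.14 for 25 genes, a9.37+a9.38 for 24 and a9.43+a9.44 for 12. Over all genes the highest of these 3 types was A8.7 in 36.3%, a8.19 in 32.7% and a8.22 in 31.0%, and at the neural plate A9.13+A9.14 in 37.3%, a9.37+a9.38 in 33.8% and a9.43+a9.44 in 28.9%.

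The summed level of the 61 genes gives their share of all reads. It was 423 ± 11.5 CPM in A5.1, 558 ± 73.2 CPM in A6.2, 1415 ± 159 CPM in A7.3, 3845 ± 1386 CPM in A8.5 and 14752 ± 5339 CPM in A9.9+A9.10 (mean ± SD over 5, 6, 4, 5 and 3 embryos). By embryo it ran from 1189 to 1537 CPM in A7.3, from 2596 to 6119 CPM in A8.5 and from 9155 to 19787 CPM in A9.9+A9.10, so these 3 ranges did not overlap. Without KH.C8.603 and KH.C7.269, the sum was 8268 CPM in A9.9+A9.10, against 3321 CPM in A8.5. The other neural plate groups averaged 1026 to 1409 CPM and the other 112-cell types 401 to 600 CPM. Without the libraries that go against their label, the sum was 577 ± 63.8 CPM in A6.2 (n = 5) and 632 ± 140 CPM in A8.7 (n = 4).

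At 64 cells the summed level was 1415 ± 159 CPM in the notochord cell A7.3, against 1403 ± 210 CPM in the endoderm cell A7.2 (n = 4 each), closer than the spread between embryos. The embryos labelled A7.4 had 643 to 751 CPM, apart from embryo 3 at 1653 CPM. The a-line types lay lower, at 511 ± 74.6 CPM in a7.10 (n = 8) and 447 ± 83.3 CPM in a7.11 (n = 6). At 32 cells A6.1 averaged 989 ± 823 CPM (n = 6), with embryo 5 at 2662 CPM and the others between 536 and 769 CPM. Without the A6.1 libraries that go against their label the mean was 1026 ± 918 CPM (n = 5). KH.S215.4 alone had 1957 CPM in that A6.1 embryo, against 21.4 to 62.1 CPM in the other A6.1 embryos.

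**Figure D3:**
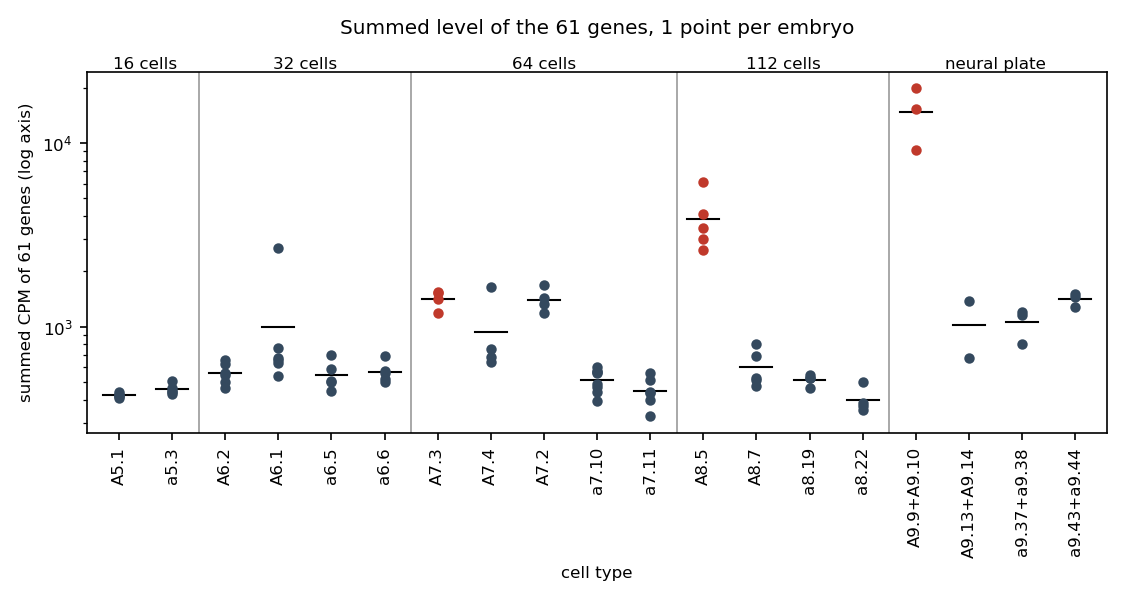
Summed CPM of the 61 genes on a log axis, by cell type and stage, with 1 point per embryo, a line at the mean, and the notochord types from 64 cells on in red. A7.3 and A7.2 lie at like levels at 64 cells, while A8.5 (2596 to 6119 CPM) and A9.9+A9.10 (9155 to 19787 CPM) stand above all other types of their stages, which the selection of the genes fixes.

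Some of the 61 genes were already present at the 16-cell stage, and others first appeared later along the path from A5.1 through A6.2, A7.3 and A8.5 to A9.9+A9.10. A mean of at least 5 CPM was first reached in A5.1 by 16 genes, in A6.2 by 2, in A7.3 by 16, in A8.5 by 16 and in A9.9+A9.10 by 6, and never by 5. Without A6.2 of embryo 1 these counts were 16, 3, 15, 16, 6 and 5. Of all gene models, 55.7% were at that level in A5.1 and 2.61% reached it first in A6.2. Another 2.23% reached it first in A7.3, 2.05% in A8.5 and 2.07% in A9.9+A9.10, and 35.4% never did. The selection asked for high means in A8.5 and A9.9+A9.10, so nothing is read from the counts first reached there. KH.C6.103 and KH.C1.683 had the highest means in A5.1 among the 61. KH.C6.103 had 395, 316 and 1796 CPM in A9.9+A9.10, against 94.8, 87.3, 102, 41.6 and 118 CPM in A5.1. KH.C1.683 had 453, 702 and 869 CPM in A9.9+A9.10, against 85.9, 53.9, 54.1, 103 and 92.7 CPM in A5.1. Both genes were thus well above 0 at the 16-cell stage, while KH.S1404.1 was first counted in A7.3. The limit sets the classes: at 1 CPM 27 genes were already present in A5.1 (66.1% of all gene models), and at 10 CPM 9 were (51.1%).

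From A6.2 to A7.3 the mean was more than 2-fold higher in 28 genes, where 6.77% of all genes were, and more than 2-fold lower in 1, where 4.78% were. Without A6.2 of embryo 1 these counts were 26 and 1, with no share of all genes counted in that setting. From A7.3 to A8.5 it was more than 2-fold higher in 42 genes, where 8.72% of all genes were, and more than 2-fold lower in 3, where 9.11% were. From A8.5 to A9.9+A9.10 it was more than 2-fold higher in 26 genes, against 13.5% of all genes, and lower in 8, against 13.7%. The median log2 ratio (1 CPM added) was 0.19 from A5.1 to A6.2, 0.87 from A6.2 to A7.3, 1.36 from A7.3 to A8.5 and 0.74 from A8.5 to A9.9+A9.10. Without A6.2 of embryo 1 the first 2 were 0.17 and 0.85. The same medians over all genes were 0.04, -0.01, -0.03 and -0.04. The last 2 steps end in types used by the selection and carry no test.

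The largest ratios of A9.9+A9.10 to A8.5 belonged to KH.C7.269, at a log2 ratio of 5.43, and KH.C10.317, at 4.89. KH.C10.317 had 258, 537 and 394 CPM in A9.9+A9.10, against 3.89, 0.349, 40.8, 9.97 and 6.81 CPM in A8.5, and at most 5.04 CPM in the other neural plate groups. The smallest belonged to KH.C8.373, at -2.47, and KH.L141.21, at -2.08. KH.L141.21 had 0, 50.8 and 0.301 CPM in A9.9+A9.10, against 31.2, 81.6, 74.8, 95.8 and 92.3 CPM in A8.5. It was thus separate from A8.7 and a8.22 at 112 cells but rested on 1 embryo at the neural plate. KH.C8.373 had 0.12, 1.47 and 0 CPM in A9.9+A9.10, against 0, 0, 5.16, 0 and 32.1 CPM in A8.5. Over all 19 types the highest mean was in A9.9+A9.10 for 37 genes, in A8.5 for 16 and in another type for 8. The selection had already asked for the highest mean of each stage in A8.5 and A9.9+A9.10. The share over all genes was not counted, so nothing is read from these counts.

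**Figure D4:**
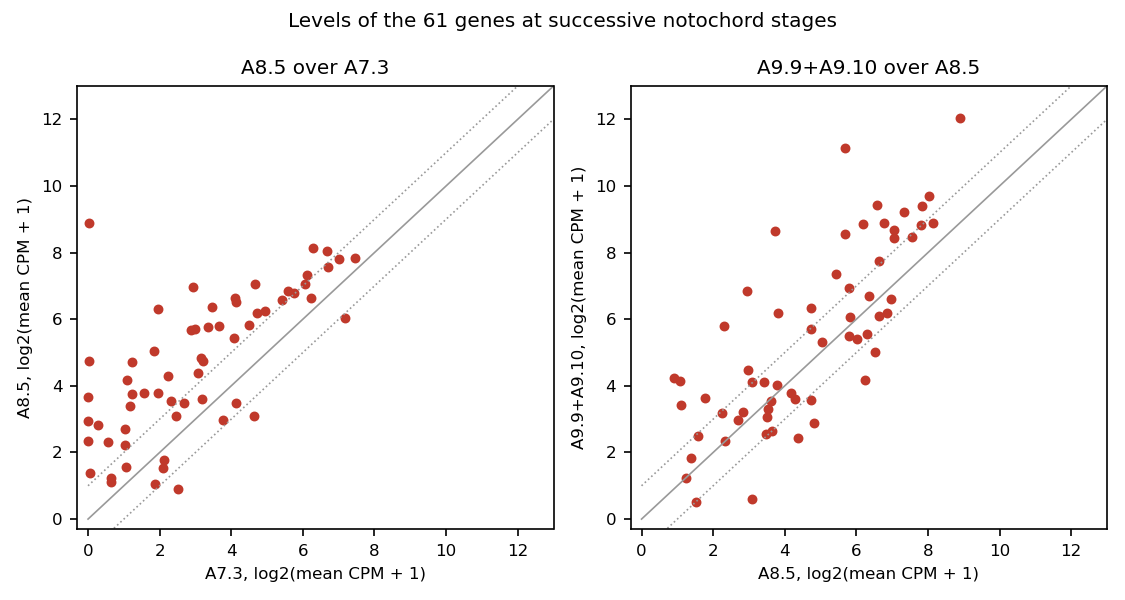
Mean levels of the 61 genes, as log2(mean CPM + 1), in A8.5 over A7.3 (left) and in A9.9+A9.10 over A8.5 (right). The solid line marks equal levels and the dotted lines a change of 2-fold in CPM + 1; 42 genes lie above the upper dotted line on the left and 26 on the right.

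The 64-cell stage was not used for the selection, and there the 61 genes could be tested. Of the 42 genes whose mean reached 5 CPM in some 64-cell type, A7.3 was the highest for 19, A7.2 for 16, A7.4 for 3, a7.10 for 3 and a7.11 for 1. Over all genes at that level A7.3 was the highest in 22.5%, A7.2 in 16.7%, A7.4 in 14.4%, a7.10 in 23.6% and a7.11 in 22.7%. Without A7.4 of embryo 3, 43 genes reached that level, and A7.3 was the highest for 17, A7.2 for 16 and A7.4 for 6. Most of the 61 genes at that level were thus highest in either the notochord or the endoderm cell.

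Against the a-line cells, many of the genes were higher in A7.3. With edgeR's quasi-likelihood test and Benjamini-Hochberg adjustment over all genes tested, 19 of the 51 genes that passed the filter on low counts were higher in A7.3 than in a7.10 and 0 were lower, where 8.36% of all genes were higher and 6.01% lower. Against a7.11 19 of 51 were higher and 0 lower, where 6.55% of all genes were higher and 4.91% lower. A fit of only the types compared tested fewer genes and called 11 of 35 higher against a7.10 (6.9% of all genes) and 12 of 34 against a7.11 (4.42% of all genes). The median log2 fold change of the genes tested was 1.75 against a7.10 and 3.47 against a7.11, and that of all genes 0.00 and 0.01. In the fits of only the types compared these medians of the genes tested were 1.39 and 1.31. With no filter on low counts they were 1.76 and 2.12, so the size of the a7.11 median depends on the fit. Without A7.4 of embryo 3 in the shared fit, 20 of 54 were higher against a7.10 (8.43% of all genes) and 23 of 54 against a7.11 (6.47% of all genes), with medians of 1.75 and 2.79. The median against a7.11 was 1.51 without A7.3 of embryo 2. Both comparisons share the A7.3 embryos.

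KH.S1404.1 averaged 67.7 ± 11.6 CPM in A7.3 (n = 4), against no count in 8 a7.10 embryos, at least 1440-fold higher than the floor of 3 counts over the group (edgeR adjusted p = 0.000196). In a7.11 it averaged 0.216 CPM (n = 6), a log2 fold change of 8.27 ± 1.74 (SE, edgeR adjusted p = 0.00388). It was thus higher in A7.3 than in either a-line type. KH.L141.21 averaged 29.7 ± 17.03 CPM in A7.3, against 0.113 CPM in a7.11, a log2 fold change of 7.92 ± 1.37 (edgeR adjusted p = 0.00032). KH.C8.373 had 0.382, 50.3, 32.9 and 11.6 CPM in A7.3, against no count in any a7.10 embryo, at least 506-fold higher than the same floor (edgeR adjusted p = 0.00385). That call came from the fit shared with the other cell types of the stage. The fit of only the types compared gave no result for KH.C8.373, so the call could not be checked there. The lowest A7.3 embryo, at 0.382 CPM, was barely above no count.

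Against the nerve cord sister A7.4 the test called none of the 51 genes higher or lower in A7.3. Among all genes it called 0% higher and 0.00859% lower, so the comparison made almost no calls anywhere. DESeq2 also called 0 of the 51, where it called 0.0687% of all genes higher and 0.258% lower. Without A7.4 of embryo 3, again 0 of 54 were called, where 0.0333% of all genes were higher and 0.0333% lower. The median log2 fold change was 0.23 with that embryo and 0.99 without it, against -0.01 and 0.00 over all genes. With the embryo as a replicate block the median was 0.79, and 1.03 when A7.4 of embryo 3 was also left out. KH.S1404.1 had a log2 fold change of 6.40 ± 1.89 between A7.3 and A7.4, with an edgeR adjusted p of 0.793 and values from 0.109 to 1 over the alternatives. KH.C12.487 had 108, 82.8, 57.3 and 47.8 CPM in A7.3, against 0.767, 0, 0.319 and 0 CPM in A7.4, and passed only in the fit of the 2 types alone (edgeR adjusted p = 0.00691, against 0.689 in the shared fit), which called 0.019% of all genes higher.

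Because so few genes passed, the number of genes whose embryos did not overlap was counted as well, a measure added after the test results had been seen. Every A7.3 embryo lay above every A7.4 embryo for 4 of 60 genes with a count (0.787% of all genes) and below for 0 (1.29% of all genes). The 4 were KH.S1404.1, KH.C12.487, KH.C6.103 and KH.C5.356. Without A7.4 of embryo 3, which leaves 3 embryos, 8 of 60 lay above (1.8% of all genes) and 0 below (2.92% of all genes). KH.C5.356 had 61.8, 46.9, 52.6 and 25.4 CPM in A7.3, against 3.68, 0, 16.0 and 16.3 CPM in A7.4.

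Against the endoderm cell A7.2 the test called 0 of 51 genes higher and 0 lower in A7.3, where 0.00859% of all genes were higher and 0.00859% lower. DESeq2 called 2 higher and 1 lower, where 0.301% of all genes were higher and 0.404% lower. The higher ones were KH.L141.21 (DESeq2 adjusted p = 3.3e-06) and KH.C6.145 (0.00704), and the lower one KH.C14.539 (0.00471). The fit of 2 types called KH.L141.21 higher (edgeR adjusted p = 0.0189), and KH.C14.539 (0.0171) and KH.C8.603 (0.0244) lower. In that fit 8 of 10396 genes were higher and 16 lower over all. The median log2 fold change was -0.03, and 0.01 without A7.4 of embryo 3 and -0.28 with the embryo as a replicate block. A7.3 and A7.2 came from the same embryos per the labels, and with the embryo as a replicate block KH.C6.145 was higher in A7.3 (edgeR adjusted p = 0.0273), where 0.0515% of all genes were. Without A7.4 of embryo 3 in the shared fit, KH.C14.539 was lower in A7.3 (edgeR adjusted p = 0.0446), where 0.0416% of all genes were. The embryos did not overlap for 5 genes with A7.3 above A7.2 (1.67% of all genes) and for 5 with A7.3 below (1.88% of all genes), each of 60.

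KH.L141.21, among the 5 above, had 35.1, 43.3, 35.5 and 4.74 CPM in A7.3, against 0.23, 0.0403, 0.497 and 0.0808 CPM in A7.2. KH.C2.97, also among them, had 50.4, 84.4, 138 and 143 CPM in A7.3, against 50.2, 38.2, 34.6 and 35.5 CPM in A7.2. Among the 5 below were KH.C2.866 and KH.C14.539. KH.S215.4, whose mean in A7.3 was among the 2 highest of the 61, had 148, 142, 172 and 115 CPM in A7.3, against 91.3, 206, 142 and 127 CPM in A7.2, so these embryos overlapped. In A7.4 it had 15.0, 233, 7.02 and 11.8 CPM, again with embryo 3 apart from the others. KH.C14.539 had 71.0, 26.0, 50.2 and 18.8 CPM in A7.3, against 271, 292, 239 and 199 CPM in A7.2, and 566, 1112 and 387 CPM later in A9.9+A9.10. KH.C14.539 and the choice of genes shown for this comparison came after their values were seen.

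**Figure D5:**
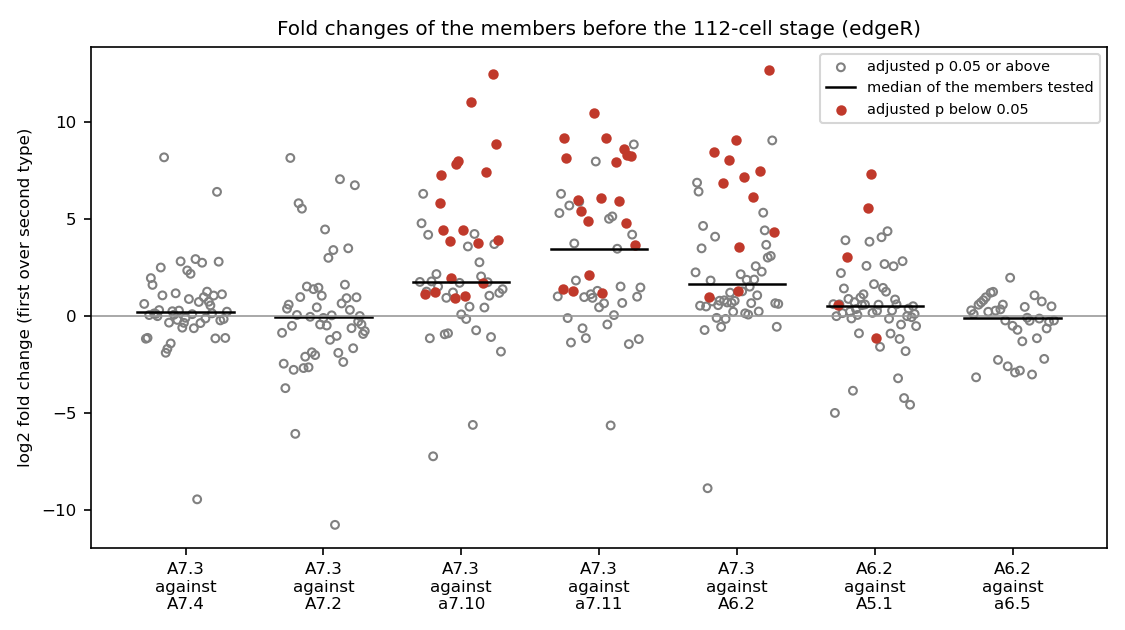
Log2 fold changes of the genes that passed the filter, from edgeR, in 7 comparisons before the 112-cell stage, with 1 point per gene, filled where the adjusted p was below 0.05, and a line at the median. The medians are 0.23 against A7.4 (0.99 without embryo 3, whose libraries go against their label) and -0.03 against A7.2. They are 1.75 against a7.10 and 3.47 against a7.11, where 19 genes each are called. In fits of only the types compared, not drawn here, the medians against a7.10 and a7.11 were 1.39 and 1.31.

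From the mother cell A6.2 to A7.3, 12 of the 56 genes tested rose and 0 fell, where 3.44% of all genes rose and 2.95% fell (edgeR adjusted p below 0.05). A6.1 was left out of this fit because 1 of its libraries was known to stand apart. In the library of A6.1 embryo 5, 7137 genes were detected, against a median of 10910 over the A6.1 libraries. With the A6.1 embryos added, only 4 rose, and the share of all genes that rose fell too, from 3.44% to 0.403%. Without A6.2 of embryo 1, whose libraries go against their label, 10 rose (2.33% of all genes). Without A7.4 of embryo 3 in the fit 13 rose (3.43% of all genes). The median log2 fold change was 1.68, and 0.01 over all genes. It was 1.39 without A6.2 of embryo 1 and 1.66 without A7.4 of embryo 3. KH.S1404.1 was not counted in any of 6 A6.2 embryos and was at least 1334-fold higher in A7.3 than the floor of 3 counts over the group (edgeR adjusted p = 0.00296). KH.C5.356 averaged 46.7 ± 15.5 CPM in A7.3 (n = 4), against 0.0569 CPM in A6.2 (n = 6), a log2 fold change of 9.08 ± 1.51 (edgeR adjusted p = 0.000737). The A7.3 and A6.2 embryos did not overlap in either gene.

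From A5.1 to A6.2 the share of the genes that changed was not above the background: 4 of 56 rose and 1 fell, where 9.29% of all genes rose and 7.69% fell. With the A6.1 embryos in the fit only 1 rose, and the share of all genes that rose fell too, to 0.774%. Without A6.2 of embryo 1 again 4 rose and 1 fell, where 8.23% of all genes rose and 6.24% fell. The median log2 fold change was 0.54, and 0.48 without A6.2 of embryo 1, against 0.04 over all genes in both fits. In the fit of only these types, which tested 26 of the 61 genes, it was 0.29, against 0.02 over all genes. Without A6.2 of embryo 6, or A5.1 of embryo 1, 3 or 4, 2 rose and 1 fell, where 833 to 1045 genes rose and 665 to 836 fell over all. KH.C11.313 averaged 65.3 ± 25.9 CPM in A6.2 (n = 6), against 7.74 ± 2.26 CPM in A5.1 (n = 5), a log2 fold change of 3.03 ± 0.31 (edgeR adjusted p = 9.6e-07, and 0.102 with the A6.1 embryos in the fit). KH.C4.635 averaged 6.33 ± 4.32 CPM in A6.2, against 2 counts in all A5.1 embryos together, a log2 fold change of 7.34 ± 1.52 (edgeR adjusted p = 0.00149). With the reads of each type pooled, its level in A6.2 was 222 times that in A5.1. The 95% counting interval was 61.1 to 1841, which leaves out the spread between embryos. The gene that fell, named after its values were seen, was KH.C6.103, with a log2 fold change of -1.13 ± 0.26 (edgeR adjusted p = 0.00339, and 0.066 with the A6.1 embryos in the fit). It was higher in A7.3 than in A6.2, at 1.29 ± 0.27 on the log2 scale (edgeR adjusted p = 0.00516, and 0.0563 with the A6.1 embryos in the fit). Neither call of KH.C6.103 held in the fit with A6.1, which made fewer calls over all genes as well.

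Between A6.2 and the a-line cell a6.5 the test called 0 of 35 genes higher and 0 lower, where 6.27% of all genes were higher and 6.77% lower. DESeq2 called 3 of the 35 higher and 3 lower, where 9% of all genes were higher and 9.34% lower. The median log2 fold change was -0.08, and 0.12 without A6.2 of embryo 1, against -0.00 and 0.01 over all genes. Without 1 embryo of either type, 0 or 1 of these genes was called, where 950 to 1592 genes were called over all.

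The identifiers share little. Of the 61, 43 carried a C number in the KH naming (70.5%, against 68.7% of all gene models), 11 an L number (18.03%, against 19.5%) and 7 an S number (11.5%, against 11.8%). Genes with numbers at most 10 apart within the same C or L number were KH.C2.97 and KH.C2.99, KH.C4.592 and KH.C4.594, KH.L18.22 and KH.L18.30, and KH.L92.11, KH.L92.12 and KH.L92.15. KH.L18.22 had 194, 417 and 610 CPM in A9.9+A9.10, while KH.L18.30 had 0, 54.1 and 0 CPM there, so 1 of these neighbours was counted in all 3 embryos and the other in 1. KH.L92.15 had 131, 14.6 and 18.1 CPM in A9.9+A9.10, KH.L92.11 had 16.9, 10.0 and 5.12 CPM and KH.L92.12 had 2.17, 9.22 and 22.0 CPM. Whether such neighbours share reads through similar sequence is not given in the sources used here, and their separate values are uncertain to that extent.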

How the data were processed

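Single-cell libraries were sequenced as single-end reads, per the labels' protocols, and the submitters' processing notes name STAR 2.7.10a as the aligner. The counting program, genome build, gene annotation and strand setting were not given in the sources used here. The authors deposited raw counts, as whole numbers, for each gene in 133 libraries, and 0 columns were left unmatched. No libraries of a group were alike within sampling noise (lowest chi-square per gene 12.6).

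CPM was computed on raw totals, over libraries for the selection and over embryo sums otherwise. Tests used edgeR 4.0.16 in R 4.3.3 (quasi-likelihood, robust, TMM, edgeR's filter by group, Benjamini-Hochberg adjustment over all genes tested, threshold 0.05), checked on simulated data. The 64-cell types shared 1 fit. A5.1, A6.2, A7.2, A7.3 and A7.4 shared another fit, and so did A6.2, a6.5 and a6.6. SE comes from the F statistic. DESeq2 1.42.0, RLE scaling, no filter, fits of 2 types, leaving out each embryo and a replicate block were alternatives. The replicate block was used only for A7.3 against A7.4 and A7.2.

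The labels give A7.2, A7.3 and A7.4 the same embryos. Their residual log2 levels correlated within embryos with a mean r of 0.306 (0.227 to 0.428, 12 pairs), against -0.098 between embryos. Whether embryos came from separate parents is not stated, so p-values measure only the spread between these embryos.

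The members, the comparisons and the rules were chosen with earlier results of these data known. Named were the first and last genes by selection value, the 2 highest in A5.1, A7.3, A8.5 and A9.9+A9.10, the 2 called genes per comparison and direction with the largest fold change, at least 5 CPM and no overlap, the extreme steps, and neighbouring identifiers. Others are marked where named, or were named to show a count. None of the KH identifiers (0) matched the reference table, so no names or sequences are given.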

Additional observations from a re-analysis of the deposited data

Results flagged for a closer look

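A sample far from the others of its group was looked for in the summed level of the 61 genes in every type of 4 to 10 embryos, and in A7.3 and A8.5 for the genes named by rule with a mean of at least 5 CPM. Of 53 groups of embryos, 11 had such a sample by Dixon's criterion. For independent groups of normal values, chance gives about 1 in 20. Most of these groups were different genes in the same embryos, and CPM values are skewed, so no excess is read from this count. No cause was tested.

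The summed level reached 2662 CPM in A6.1 of embryo 5, against 536 to 769 CPM in the other A6.1 embryos, and 1653 CPM in A7.4 of embryo 3, against 643 to 751 CPM in the others. In A8.5, embryo 5 was the highest for KH.C2.866 (273.8 CPM, others at most 129.7 CPM), KH.C11.274 (29.1 CPM, others at most 1.66 CPM), KH.C7.269 (241.6 CPM, others at most 12.1 CPM), KH.C10.317 (40.8 CPM, others at most 9.97 CPM) and KH.L18.22 (327.3 CPM, others at most 130.2 CPM). The same embryo was the lowest for KH.S215.4, at 32.7 CPM, against at least 66.5 CPM in the others. KH.C8.373 reached 32.1 CPM in A8.5 of embryo 7 (others at most 5.16 CPM) and KH.C4.635 reached 59.7 CPM in A8.5 of embryo 3 (others at most 15.2 CPM). In A7.3, KH.C6.103 reached 141 CPM in embryo 5, against 86.9 to 89.7 CPM in the others.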

How the results depend on the processing

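The selection kept 37 of the 61 genes with 5 CPM added and 36 with medians over libraries. It kept 50 with means over embryos, 54 with 0.1 CPM added and 61 with TMM-scaled totals. Without 1 embryo of a 112-cell or neural plate type it kept 48 to 61, and 28 genes stayed in all 29 such lists. The 64-cell A-line counts moved from 0 to 1 higher against A7.4 in the fit of 2 types (0.019% of all genes). Against A7.2 DESeq2 called 2 higher and 1 lower (0.301% and 0.404% of all genes). The fit of 2 types called 1 of 47 higher and 2 lower there, where 8 and 16 of 10396 genes were. The replicate block called 1 higher (0.0515% of all genes), and the fit without A7.4 of embryo 3 called 1 lower (0.0416% of all genes). The replicate block was run only for A7.3 against A7.4 and A7.2, and it changed no count against A7.4. Fits of 2 types gave 11 of 35 higher against a7.10 (6.9% of all genes) and 12 of 34 higher against a7.11 (4.42% of all genes). With A6.1 added, A7.3 against A6.2 gave 4 higher (0.403% of all genes) and A6.2 against A5.1 gave 1 higher (0.774% of all genes). Against a6.5, A6.2 gave 1 of 58 higher with no filter, where 614 of 14468 genes were higher and 667 lower. DESeq2 gave 3 of 35 higher and 3 lower, where 9% and 9.34% of all genes were. The fit of 2 types gave 1 of 33 higher and 2 lower, where 583 and 546 of 10433 genes were. Without 1 embryo the counts were 0 to 0 against A7.4 and A7.2, where 0 to 8 and 0 to 3 genes were called over all. They were 15 to 19 against a7.10 (1209 to 1659 over all genes) and 17 to 19 against a7.11 (882 to 1257). For A7.3 against A6.2 they were 9 to 11 (424 to 877). For A6.2 against A5.1 they were 3 to 5 (1436 to 2043), with 3 without A6.2 of embryo 6 or A5.1 of embryo 1, 3 or 4. For A6.2 against a6.5 they were 0 to 1 (950 to 1592). At 1 CPM, 27, 4, 21, 9, 0 and 0 genes were first present in A5.1, A6.2, A7.3, A8.5, A9.9+A9.10 and nowhere, and at 10 CPM 9, 1, 15, 20, 7 and 9. Over all gene models these shares were 66.1%, 3.69%, 4.07%, 2.9%, 1.96% and 21.3% at 1 CPM. At 10 CPM they were 51.1%, 2.4%, 1.72%, 1.61%, 1.69% and 41.5%. With embryo sums 17 and 28 genes were separate at 112 cells and the neural plate. KH.C14.539 against A7.4 had a log2 fold change of -1.40, ranging from -1.74 to 0.13 without 1 embryo (0.13 without A7.4 of embryo 3) and 0.035 with that embryo left out under the replicate block. The causes of these changes were not tested, apart from the fewer genes (34 or 35) or samples that some fits hold. With 2 to 4 embryos in several types, a gene counted in 1 embryo carries little weight.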
